A study of Caenorhabditis elegans with 14 samples.

Results

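The 43 genes described here encode regulators of RNA and structural proteins of the germline, oocyte and early embryo of Caenorhabditis elegans. They were taken by name from a list of 43 genes, and all 43 had a row among the 20541 genes of the deposited count table. Each value is a number of small RNA reads of 21 to 26 nt counted at the gene. It does not measure the messenger RNA, and reads of either strand may be included, since no source used here states the strand setting. The genes fall into 7 PUF family genes, 7 genes of CCCH zinc finger proteins, 3 Nanos genes, 5 P granule genes, 9 other RNA regulators, 2 receptor genes and 10 genes of the eggshell and egg surface.

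Whole young adults were sampled in 12 libraries of 5 groups, all made after a polyphosphatase step that lets RNAs with a 5' triphosphate be ligated. They comprised wild type N2 (n = 2), HC125 with the transgene Psid-1::gfp (n = 4), hrde-1;HC125, which has the same transgene with hrde-1 (strain HC995, n = 2) and is called the hrde-1 strain below, and lines of strain HC83 labelled non-array, taken when silenced (generation F6, n = 2) or when de-silenced (F21, n = 2). The gfp of HC125 is driven by the promoter of sid-1, a gene of systemic RNAi. The product of hrde-1 is an Argonaute that acts in germline nuclei. No allele of hrde-1 is named in the labels, and nothing says whether replicates were separate cultures, so p-values rest on a spread between libraries that may be technical. In whole worms, fewer cells of a type and less small RNA per cell cannot be told apart.

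In the worm germline, RNA-dependent RNA polymerases copy many messenger RNAs into antisense small RNAs with a 5' triphosphate, which are bound by Argonautes. The Argonaute CSR-1 binds those against germline-expressed genes, while WAGO Argonautes, HRDE-1 among them, bind those against silenced genes. Developing oocytes are largely governed after transcription: PUF, CCCH finger, KH and Nanos proteins bind the untranslated regions of maternal messages, and P granules at the nuclear envelope hold both such messages and the small RNA machinery. The eggshell proteins are made in oocytes and assembled after fertilization.

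The libraries held 451389 to 6379388 counts at genes, and the 43 genes took 0.723% to 1.10% of them. The shallowest libraries were HC125 replicate 1, N2 replicate 1 (470115) and F21 replicate 2 (514814), in which 3 counts came to 5.81 to 6.63 CPM (counts scaled to library size and by the trimmed mean of M values, TMM). The correlation of log CPM between replicates was lowest for N2 (0.887) and 0.905 to 0.984 within the other groups. HC125 replicates 1 and 2 had fewer small RNAs at these genes than replicates 3 and 4, by a median of -0.21 on the log2 scale over the 43 genes. Small RNAs at hrde-1 itself came to 469 and 538 CPM in the hrde-1 strain and to 813 or more in each other library, and those at sid-1 were most at F6, with 4713 and 4141 CPM. Neither checks the mutation, which the counts do not show.

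All 43 genes passed the filter on low counts. By the Ensembl release 115 annotation, 10 lie on chromosome I, 12 on II, 7 on III, 10 on IV, 4 on V and 0 on X, while 25.2% of the annotated genes of the table lie on V and 13.6% on X. Exons of 15 of the 43 genes overlap those of another gene, by at most 154 nt, the length shared by nos-2 and the meiotic gene him-14 on the other strand. perm-4 and perm-2 are direct neighbours on chromosome IV, 1682 nt apart, and 5 genes lie between fbf-1 and fbf-2 on chromosome II.

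Levels per length spanned a wide range, with PUF and P granule genes highest by subgroup median and the neighbouring genes perm-2 and perm-4 lowest. The median over the 43 genes was 54.2 CPM per kb of exon, as the mean of the 5 group means, against 20.4 over the 10351 tested genes with an annotated length. Of the 43, 41 lay above that median and 23 above the upper quartile of 48.8. The P granule helicase gene glh-4 was highest at 409.7 CPM per kb, followed by puf-11 (291), car-1 (291) and glh-1 (237). By subgroup, the median level was 182 CPM per kb for PUF genes, 177 for P granule genes and 72.3 for the 2 receptor genes. It was 42.5 for Nanos genes, 39.95 for eggshell genes, 37.95 for CCCH finger genes and 33.5 for the other RNA regulators. Every PUF gene, from puf-5 at 107 upwards, therefore stood above the CCCH finger gene with the highest level, pie-1 at 72.5 CPM per kb. perm-2 and perm-4, which encode proteins of the embryo's permeability barrier, had 4.69 and 4.36 CPM per kb and at most 22 and 34 counts in any library, with 0 counts in N2 replicate 1. They are counted among the 43 and the eggshell genes in what follows, but their fold changes rest on few counts.

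**Figure D1:**
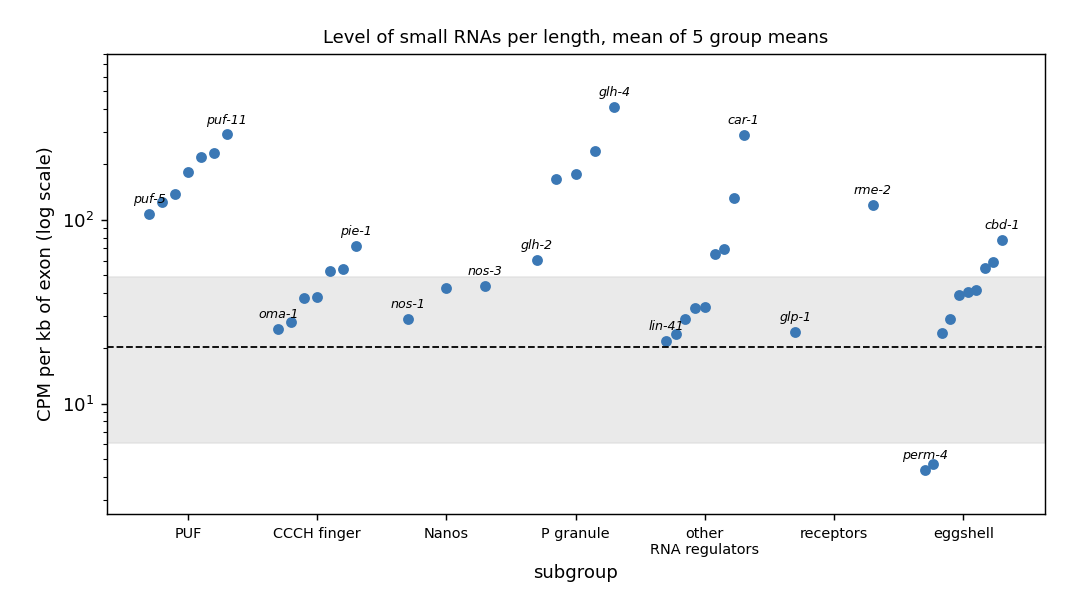
Each point is 1 gene, placed by its level of small RNAs in CPM per kb of exon (log scale, mean of the 5 group means) within its subgroup, with the lowest and highest gene of each subgroup named. The dashed line is the median of all tested genes (20.4) and the grey band its quartiles (6.12 and 48.8); 41 of the 43 genes lie above the line, and only perm-2 and perm-4 lie below it.

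Across the 12 libraries the genes differed in how far they varied. The most even were glh-4 and fbf-1, each with a highest library 1.27 times the lowest, followed by pgl-3, and by chs-1 and fbf-2 (1.34 each). puf-3, puf-11 and cgh-1 varied 2.76-, 2.63- and 2.62-fold. pos-1 varied 4.33-fold, with its lowest value, 17.4 CPM, resting on 9 counts in F21 replicate 2. In the test of any difference among the 5 groups, 8 of the 43 genes were called at an adjusted p under 0.05 by edgeR's quasi-likelihood F test (18.6%), against 16.9% of all 10470 tested genes, so the share is near the background. These were puf-3, puf-11, mex-1, mex-5, pos-1, nos-2, cgh-1 and cpg-2. In each of the 8, both libraries of the hrde-1 strain lay above the other 10 libraries. Leaving out replicate 1 of the hrde-1 strain left 5 calls, and leaving out its replicate 2 left 3.

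**Figure D2:**
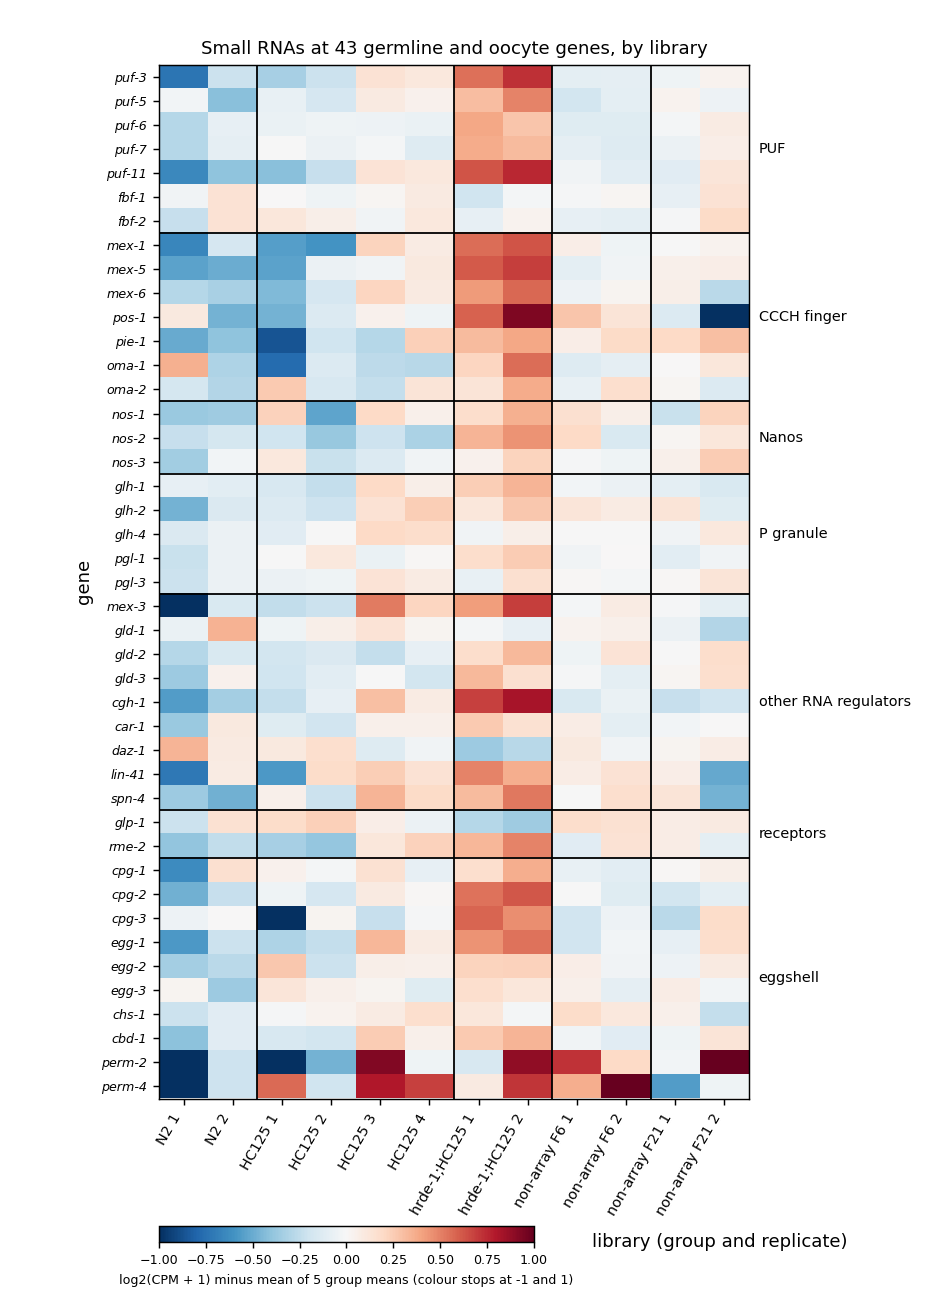
Rows are the 43 genes by subgroup and columns the 12 libraries by group; colour is log2(CPM + 1) minus the mean of the 5 group means of that gene, red for higher and blue for lower. The hrde-1 strain columns are red in most PUF and CCCH finger rows and blue for daz-1 and glp-1; perm-2 and perm-4 are shown on at most 22 and 34 counts per library.

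The comparison of the hrde-1 strain with HC125 asks which small RNAs differ when the nuclear Argonaute is mutated. Small RNAs rose at 15 of the 43 genes and fell at 0 (34.9% higher), while 7.76% of all tested genes were higher and 9.2% lower (17% in either direction). The rises were 5 of 7 PUF genes, 5 of 7 CCCH finger genes, 1 of 3 Nanos genes, 2 of 9 other RNA regulators and 2 of 10 eggshell genes. None of the 5 P granule genes and neither receptor gene was called, with 1 and 2 of them at an unadjusted p under 0.05 and 0 called by DESeq2. The median log2 fold change was 0.70 over the CCCH finger genes, 0.40 over PUF genes and 0.35 over the other RNA regulators. It was 0.27 over Nanos and eggshell genes alike, 0.16 over P granule genes and 0.025 over the 2 receptor genes (-0.42 and 0.47). Over all 43 it was 0.35, and over all tested genes -0.03. The median rise was 0.69 over these 15 and 1.43 over all 812 genes called higher. Genes with few counts are called only at large folds, while most of the 43 lay above the median level of tested genes. The 2 medians, and the shares of genes called, are therefore not like for like. Groups did not overlap at 25 of the 43 genes in the higher direction (background 18.9%) and at 2 in the lower (background 17.1%).

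The count rests on both libraries of the hrde-1 strain, since 8 genes were called higher without replicate 1 and 3 without replicate 2, when the remaining library is assumed to vary like the other groups. With library size alone as scaling, which moved the median of all genes by -0.12, 9 were called higher and 2 were called lower. The median of the 43 lay 0.39 above that of all genes under both scalings. A change of scaling shifts all genes nearly alike, so that difference cannot show whether the calls depend on it.

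**Figure D3:**
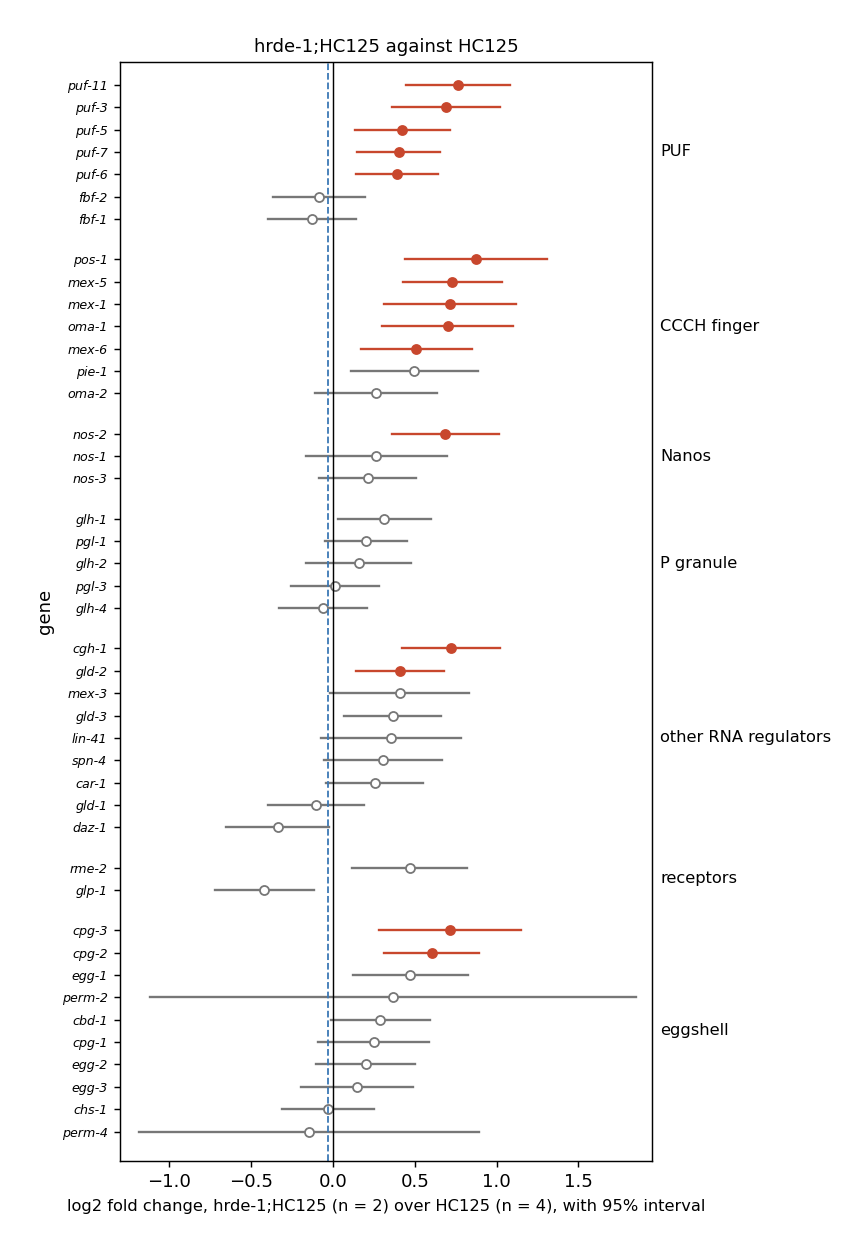
Points are log2 fold changes of the hrde-1 strain (n = 2) over HC125 (n = 4) with 95% intervals, by subgroup; filled red points are the 15 genes called higher and open grey points the 28 not called. The solid line marks 0 and the dashed line the median of all tested genes (-0.03); the called genes lie between 0.39 and 0.87, and 8 genes lie to the left of 0, glp-1 and daz-1 farthest.

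Within the PUF family the genes of oocyte PUF proteins rose and those of the stem cell PUF proteins were not called. puf-11 (WBGene00022257, WBcel235 IV:6421585-6423497, plus strand), whose protein acts in oocytes, had 309 and 365 CPM (N2), 362, 412, 530.1 and 519 (the HC125 libraries), 747 and 814 (the hrde-1 strain), 470.3 and 449.6 (generation F6) and 448 and 525 (generation F21). Both libraries of the hrde-1 strain lay above every other library, and small RNAs at puf-11 rose over HC125 by 0.76 ± 0.15 log2 units (SE, with adjusted p = 0.00137). puf-3 (WBGene00004239, WBcel235 IV:13510307-13512162, minus strand), its close paralogue, had 183 and 263 CPM (N2), 242, 263, 337 and 328 (the HC125 libraries), 448 and 506 (the hrde-1 strain), 285 and 287 (generation F6) and 296 and 312 (generation F21). Again the hrde-1 strain libraries stood above the other 10, with a rise of 0.69 ± 0.16 log2 units (SE, with adjusted p = 0.00386). In both genes HC125 replicates 3 and 4 lay between the hrde-1 strain and all remaining HC125 and N2 libraries.

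puf-5, puf-6 and puf-7, whose proteins act together in oocyte growth, rose by 0.42 ± 0.14 (adjusted p = 0.0414), 0.39 ± 0.12 (adjusted p = 0.0285) and 0.40 ± 0.12 (adjusted p = 0.0263). puf-5 had 271 and 309 CPM in the hrde-1 strain against 208, 194, 233 and 226 in HC125. puf-6 had 559 and 520.3 CPM in the hrde-1 strain against 409, 415, 413 and 409 in HC125, and puf-7 had 517 and 498 CPM in the hrde-1 strain against 398, 384, 393 and 365 in HC125. puf-6 and puf-7 are near-identical genes, and puf-6 exceeded puf-7 in 12 of 12 libraries by 1.03 to 1.12 times. How reads matching both were counted is not stated, so the values of the pair are uncertain and need not be independent. The same limit applies to any reads shared by puf-3 and puf-11, whose ratio was 0.59 to 0.72, or by fbf-1 and fbf-2. The calls of puf-5, puf-6 and puf-7 ended under several alternatives, among them the omission of either hrde-1 strain library (adjusted p up to 0.407, 0.229 and 0.18).

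fbf-1 and fbf-2 encode near-identical proteins that maintain the germline stem cells. fbf-1 had 276 and 312 CPM (N2), 283, 274, 286 and 301 (the HC125 libraries), 246 and 279 (the hrde-1 strain), 281 and 286 (generation F6) and 267 and 312 (generation F21). fbf-2 had 267 and 346 CPM (N2), 338, 326, 306 and 337 (the HC125 libraries), 296 and 321 (the hrde-1 strain), 296 and 293 (generation F6) and 311 and 358 (generation F21). The groups overlapped at both genes and neither was called (adjusted p = 0.599 and 0.758), with 95% intervals of the log2 fold change from -0.40 to 0.14 and from -0.36 to 0.20.

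Among the CCCH finger genes, whose proteins set up the polarity and cell fates of the early embryo, the median rise was the largest of the 7 subgroups. mex-5 (WBGene00003230, WBcel235 IV:13353723-13356104, plus strand), which acts in the polarity of the zygote, had 68.5 and 70.4 CPM (N2), 68.5, 95.5, 97.3 and 107 (the HC125 libraries), 153 and 162 (the hrde-1 strain), 92.8 and 96.9 (generation F6) and 103 and 105 (generation F21). The hrde-1 strain libraries lay above all others, and the rise over HC125 was 0.73 ± 0.14 log2 units (SE, with adjusted p = 0.0013). mex-6, its partner, rose by 0.51 ± 0.16 (adjusted p = 0.035), with 94.5 and 105 CPM in the hrde-1 strain against 51.4, 62.5, 81.8 and 74.7 in HC125. This call ended in 8 of 12 alternatives, among them DESeq2, library size alone and the omission of either hrde-1 strain library (adjusted p up to 0.301). mex-1, needed for germline fate in the embryo, rose by 0.71 ± 0.19 (adjusted p = 0.014), with 145 and 152 CPM in the hrde-1 strain against 66.4, 64.2, 114 and 104 in HC125. In mex-1 the HC125 libraries fell into a lower pair, replicates 1 and 2, and a higher pair, replicates 3 and 4, and both libraries of the hrde-1 strain exceeded the higher pair.

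pos-1, a translational regulator of posterior fates, had the largest fold of the 43 at 0.87 ± 0.21 (adjusted p = 0.0055), with 59.4 and 75.4 CPM in the hrde-1 strain against 27.8, 35.5, 40.3 and 37.98 in HC125. oma-1, which acts in oocyte maturation, rose by 0.70 ± 0.19 (adjusted p = 0.0142), with 51.9 and 66.3 CPM in the hrde-1 strain against 25.7, 40.6, 37.03 and 36.7 in HC125. Its partner oma-2 was not called (adjusted p = 0.378), and its groups overlapped, with 46.6 and 55.3 CPM in the hrde-1 strain against 51.4, 38.03, 35.9 and 46.6 in HC125. pie-1 (WBGene00004027, WBcel235 III:12426893-12429195, plus strand), a repressor of transcription in germline blastomeres, had 55.2 and 59.2 CPM (N2), 42.8, 68.5, 64.1 and 92.99 (the HC125 libraries), 98.02 and 103 (the hrde-1 strain), 82.2 and 89.8 (generation F6) and 90.3 and 96.8 (generation F21). It was not called over HC125 (adjusted p = 0.0783), although both libraries of the hrde-1 strain exceeded the 4 HC125 libraries. The N2 libraries and HC125 replicate 1 were the lowest at pie-1, and all F6 and F21 libraries lay above HC125 replicates 1 to 3.

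nos-2 (WBGene00003784, WBcel235 II:7065618-7067051, plus strand), which is supplied by the mother and acts in primordial germ cells, was the Nanos gene that rose. It had 44.2 and 45.8 CPM (N2), 44.97, 39.7, 44.8 and 41.4 (the HC125 libraries), 65.8 and 71.1 (the hrde-1 strain), 59.7 and 46.7 (generation F6) and 52.5 and 56.1 (generation F21). The hrde-1 strain libraries were the highest of the 12, F6 replicate 1 came next, and the rise over HC125 was 0.69 ± 0.15 log2 units (SE, with adjusted p = 0.00378). Without a stated strand setting, reads in the 154 nt that nos-2 shares with him-14 cannot be told apart. nos-3 (WBGene00003785, WBcel235 II:9746316-9750462, plus strand), a partner of FBF in the switch from sperm to oocytes, had 117 and 146 CPM (N2), 161, 128, 135 and 145 (the HC125 libraries), 153 and 174 (the hrde-1 strain), 148 and 144 (generation F6) and 154 and 178 (generation F21). Its groups overlapped and it was not called, nor was nos-1 (adjusted p = 0.37 and 0.458), which ranged from 23.7 to 44.6 CPM.

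Of the P granule genes, glh-4, glh-1, pgl-1 and pgl-3 had many small RNAs, with a highest library 1.27 to 1.49 times the lowest. glh-2 had fewer, at 60.8 CPM per kb, and varied 1.68-fold. glh-4 (WBGene00001601, WBcel235 I:3727027-3731179, plus strand), which encodes a Vasa-like helicase, had 1385 and 1472 CPM (N2), 1418, 1526, 1755 and 1728 (the HC125 libraries), 1493 and 1593 (the hrde-1 strain), 1525 and 1524 (generation F6) and 1497 and 1649.5 (generation F21). The 2 highest values were those of HC125 replicates 3 and 4, so the hrde-1 strain and HC125 overlapped (adjusted p = 0.826). glh-1, the main Vasa homologue, had 775 and 825 CPM in the hrde-1 strain against 583, 553, 749.5 and 679 in HC125, and the groups did not overlap, but it was not called (adjusted p = 0.132). glh-2 ranged from 139 to 234 CPM, pgl-1 from 378 to 524 CPM and pgl-3 from 329 to 426 CPM. pgl-1 and pgl-3 encode the scaffold proteins of P granules, and neither was called (adjusted p = 0.306 and 0.98).

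cgh-1 (WBGene00000479, WBcel235 III:7495320-7497832, minus strand), a DEAD-box helicase that protects maternal messages in germ granules, had the smallest adjusted p among the other RNA regulators. It had 192 and 224 CPM (N2), 239.9, 268, 349 and 299.7 (the HC125 libraries), 457 and 504 (the hrde-1 strain), 255 and 271 (generation F6) and 242 and 248 (generation F21). Both libraries of the hrde-1 strain lay above all others and both N2 libraries below all others, and the rise over HC125 was 0.72 ± 0.14 log2 units (SE, with adjusted p = 0.00131). car-1 (WBGene00012484, WBcel235 I:12904470-12906040, plus strand), which binds CGH-1, had 318 and 440.4 CPM (N2), 377, 359, 424 and 425 (the HC125 libraries), 493 and 456 (the hrde-1 strain), 434 and 385 (generation F6) and 404 and 412 (generation F21). It was not called (adjusted p = 0.266), although both libraries of the hrde-1 strain lay above all other libraries. gld-2, a cytoplasmic poly(A) polymerase, had 233 and 259.6 CPM in the hrde-1 strain against 182, 187, 175 and 195 in HC125. It rose by 0.41 ± 0.13 (adjusted p = 0.0324), a call that ended in 8 of 12 alternatives, and its partner gld-3, which ranged from 70.7 to 115 CPM, was not called (adjusted p = 0.0901).

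daz-1 and gld-1 act in the meiotic germline, daz-1 in the progress of meiosis towards oocytes and gld-1 as a repressor of translation. Small RNAs at daz-1 came to 83.95 and 70.4 CPM (N2), 70.7, 74.4, 60.2 and 64.4 (the HC125 libraries), 51.1 and 54.5 (the hrde-1 strain), 70.7 and 64.4 (generation F6) and 67.4 and 69.7 (generation F21). The hrde-1 strain libraries were the lowest of the 12 at daz-1, which was not called (adjusted p = 0.144) but was called lower with library size alone (adjusted p = 0.0484). gld-1 ranged from 124 to 194 CPM, and its groups overlapped (adjusted p = 0.703). The oocyte and embryo regulators mex-3, lin-41 and spn-4 were not called over HC125 (adjusted p = 0.204, 0.288 and 0.268). lin-41 ranged from 61.9 to 145 CPM and spn-4 from 69.3 to 141 CPM. mex-3 had 75.3 and 91.3 CPM in the hrde-1 strain against 47.1, 48.2, 80.7 and 65.2 in HC125, with N2 at 26.5 and 50.3 CPM.

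The receptor genes lay on opposite sides. glp-1, the Notch receptor that keeps germ cells dividing, had 90.6 and 117 CPM (N2), 119.9, 124, 110.0 and 101 (the HC125 libraries), 86.3 and 81.9 (the hrde-1 strain), 119.2 and 117 (generation F6) and 111 and 112 (generation F21). The hrde-1 strain libraries were the lowest of the 12, and glp-1 lay just outside the threshold over HC125 (adjusted p = 0.0538). It was called lower with library size alone (adjusted p = 0.0198), without N2 replicate 1 (0.046), without N2 replicate 2 (0.0493) and without HC125 replicate 4 (0.035). rme-2 (WBGene00004374, WBcel235 IV:5470026-5473174, plus strand), the receptor through which oocytes take up yolk, had 256 and 285 CPM (N2), 268, 258, 366 and 396 (the HC125 libraries), 424 and 477 (the hrde-1 strain), 311 and 373 (generation F6) and 355 and 316 (generation F21). The hrde-1 strain libraries were the highest, with HC125 replicate 4 next, and rme-2 was not called over HC125 (adjusted p = 0.0646).

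Of the eggshell genes, cpg-2 and cpg-3, which encode chondroitin proteoglycans, rose over HC125. cpg-2 (WBGene00015102, WBcel235 III:7102092-7103990, minus strand) had 48.6 and 58.1 CPM (N2), 66.4, 60.9, 72.96 and 68.9 (the HC125 libraries), 100.2 and 106 (the hrde-1 strain), 68.1 and 62.8 (generation F6) and 59.96 and 63.9 (generation F21). The hrde-1 strain libraries stood above the other 10, with a rise of 0.60 ± 0.14 log2 units (SE, with adjusted p = 0.00417). cpg-3 rose by 0.72 ± 0.21 (adjusted p = 0.0214), with 58.9 and 54.2 CPM in the hrde-1 strain against 17.1, 39.7, 33.2 and 38.8 in HC125, where the lowest value rests on 8 counts, and its call ended in 4 of 12 alternatives (adjusted p up to 0.178). cbd-1 (WBGene00010351, WBcel235 IV:11372991-11377627, plus strand), a chitin-binding protein of the outer layer, had 245 and 302 CPM (N2), 291, 287, 389.7 and 338 (the HC125 libraries), 391 and 412 (the hrde-1 strain), 318 and 301 (generation F6) and 317 and 356 (generation F21). It was not called over HC125 (adjusted p = 0.209), and HC125 replicate 3 lay just below the lower hrde-1 strain library.

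The remaining eggshell genes were not called over HC125. egg-1, a surface protein needed for fertilization, had 131 and 139.9 CPM in the hrde-1 strain against 77.1, 81.1, 121 and 101 in HC125 (adjusted p = 0.0632). Its paralogue egg-2 ranged from 57.4 to 87.8 CPM, and HC125 replicate 1 was its highest library. cpg-1 ranged from 70.7 to 142 CPM, the egg activation gene egg-3 from 33.5 to 48.9 CPM and the chitin synthase gene chs-1 from 105 to 140.1 CPM. At egg-3 and chs-1 the groups overlapped between the hrde-1 strain and HC125.

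**Figure D4:**
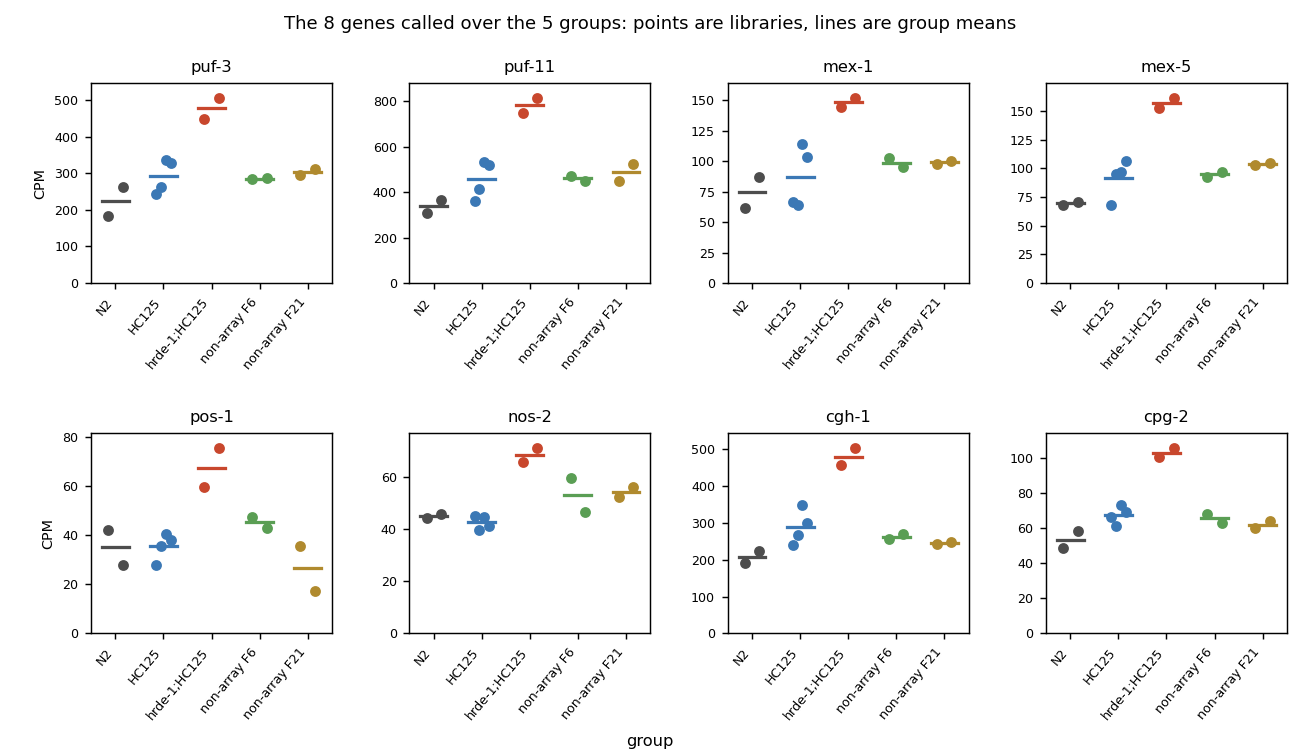
Points are the CPM of single libraries and lines the group means for the 8 genes called in the test over 5 groups; every axis starts at 0. In all 8 genes both libraries of the hrde-1 strain lie above the 10 other libraries.

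The hrde-1 strain was also set against N2, which shares the hrde-1 strain libraries with the comparison above. Small RNAs rose at 17 of the 43 genes and fell at 0 (39.5% higher), against a background of 8.84% higher, 8.89% lower and 17.7% in either direction. As above, most of the 43 lay above the median level of tested genes, so these shares are not like for like. Groups did not overlap at 36 genes in the higher direction (background 32.2%) and at 2 in the lower (background 27.4%). The rises were 5 of 7 PUF genes, 5 of 7 CCCH finger genes, 3 of 9 other RNA regulators, 1 of 2 receptor genes and 3 of 10 eggshell genes, and 0 of 5 P granule and 0 of 3 Nanos genes, of which 3 and 2 had an unadjusted p under 0.05 and 0 were called by DESeq2. The largest were puf-11 at 1.20 ± 0.19 log2 units (SE, with adjusted p = 0.00016), cgh-1 at 1.20 ± 0.18 (adjusted p = 9.76e-05) and mex-5 at 1.18 ± 0.19 (adjusted p = 0.000276). puf-3 rose by 1.07 ± 0.19 (adjusted p = 0.000657) and cpg-2 by 0.92 ± 0.19 (adjusted p = 0.00187). pie-1 (0.80), mex-3 (1.02), spn-4 (0.87), rme-2 (0.73), egg-1 (0.85) and cbd-1 (0.54), not called over HC125, rose over N2. The call of pie-1 ended in 6 of 10 alternatives, among them DESeq2, library size alone and the omission of any of the 4 libraries, and that of cbd-1 in 5 of 10. Those of mex-3, spn-4, rme-2 and egg-1 each ended in 2 of 10. Among the genes also called over HC125, the calls of puf-6 and puf-7 against N2 each ended in 5 of 10. Those of puf-5 and pos-1 ended in 4, that of mex-6 in 3 and that of mex-1 in 2. The calls of puf-3, puf-11, mex-5, cgh-1 and cpg-2 were kept in all 10. Without hrde-1 strain replicate 2 the count was 5 and without N2 replicate 1 it was 8.

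HC125 and N2 were compared to ask what accompanies the transgene. By edgeR 0 of the 43 genes were called (background 0.506%, with 0.22% higher and 0.287% lower), 6 had an unadjusted p under 0.05 and DESeq2 called 0. Those 6 were puf-3, puf-11, mex-5, mex-3, cgh-1 and spn-4. The median log2 fold change was 0.21, beside 0.01 over all tested genes. Groups did not overlap at 7 genes, all higher in HC125 (background 8.87% higher and 7.87% lower), and 1 of these was perm-4, with 0 and 3 counts in N2. At cgh-1 all 4 HC125 libraries, from 240 to 349 CPM, lay above both N2 libraries. N2 replicate 2 and HC125 replicates 1 and 2 were also left out together, which leaves 1 N2 library of 470115 counts. By median at the 43 genes, N2 replicate 2 was the higher N2 library (by 0.18) and the HC125 pair the lower (-0.21). A larger difference was therefore built in. The median log2 fold change was then 0.37, beside 0.09 over all tested genes, with puf-3 at 0.88, puf-11 at 0.78 and cgh-1 at 0.77.

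At F6 and at F21 small RNAs at the 43 genes did not differ from N2 beyond the threshold. For F6 against N2 edgeR called 0 (background 1.44%, with 0.382% higher and 1.06% lower), 4 had an unadjusted p under 0.05 and DESeq2 called 0. For F21 against N2 the counts were likewise 0 (background 0.201%, with 0.115% higher and 0.086% lower), 4 and 0. The medians were 0.25 and 0.23, beside 0.06 and 0.02 over all tested genes. Both F6 libraries lay above both N2 libraries at 26 of the 43 genes (background 28.8%), and both F21 libraries at 24 (background 22%), with 0 and 1 lower (background 22.3% and 20.3%). These comparisons share the N2 libraries with each other and with those above. With the same 3 libraries left out, only the N2 library that was lower by median remained. The log2 fold changes of puf-3 and puf-11 over N2 were then 0.69 and 0.62 at F6, and 0.75 and 0.66 at F21.

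F6 against F21 compares the silenced with the de-silenced generation. By edgeR 0 of 43 genes were called (background 0.143%, with 0.086% higher and 0.0573% lower), 2 had an unadjusted p under 0.05 and DESeq2 called 0, and the count was 0 in each of the 10 alternatives. The median log2 fold change was 0.00, beside 0.01 over all tested genes. Both F6 libraries exceeded both F21 libraries at 8 genes (background 19.4%) and lay below them at 11 (background 16.7%). The PUF genes lay below 0 in 7 of 7, from -0.17 to -0.02, and none was called or had an unadjusted p under 0.05. The pair with unadjusted p under 0.05, pos-1 and perm-4, held 9 and 2 counts in F21 replicate 2.

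Other genes of the same processes were read from lists of general knowledge. In the hrde-1 strain against HC125, of 9 further eggshell and egg activation genes 2 were higher and 0 lower, the permeability barrier gene perm-1 (0.61) and the surface protein gene egg-6 (0.43), with a median of 0.29. Of 23 tested further RNA regulators of the germline, 1 was higher (sygl-1, a stem cell gene activated by Notch, 0.84) and 2 lower (puf-9, the PUF gene of somatic tissues, -1.58, and fog-1, a CPEB protein that specifies sperm, -0.94). Of 13 further P granule genes 1 was higher (the Argonaute gene wago-1, 0.73) and 1 lower (meg-4, -1.27). Set against N2, the hrde-1 strain had 4 further eggshell genes higher and 0 lower, 2 RNA regulators higher and 2 lower, and 2 P granule genes higher and 1 lower. edgeR called 0 genes of these 3 lists in HC125, at F6 or at F21 against N2, with at most 3 of a list at an unadjusted p under 0.05, and 0 between F6 and F21, with 0 at that p. DESeq2 was not read for these lists.

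Genes of sperm were read as markers of the other germ cell type, though their small RNAs need not follow the number of sperm cells. The sum over 12 sperm genes was 247 to 426 CPM in N2, 141 to 356 in HC125, 87.0 to 152 in the hrde-1 strain, 156 to 175 at F6 and 192 to 209 at F21. In HC125 it was 356 and 330 CPM in replicates 1 and 2, which were the lower ones at the 43 genes, and 185 and 141 in replicates 3 and 4. Of 10 tested sperm genes 2 fell in the hrde-1 strain against HC125 and 0 rose, spe-41 (-2.82) and fer-1 (-3.26). From HC125 to the hrde-1 strain, mean CPM went from 54.5 to 7.29 at spe-41 and from 58.7 to 5.44 at fer-1. These 2 genes made up most of the fall in the mean sum, from 253 to 120 CPM. The part of the sperm genes in the result was not tested. When N2 replicate 2 and HC125 replicates 1 and 2 were left out together, the rise of the hrde-1 strain over HC125 was smaller. HC125 replicates 1 and 2 were the lower ones at the 43 genes, so their omission lowers the rise whatever the cause. The median log2 fold change of the 43 was then 0.24, beside -0.01 over all tested genes. With all libraries these medians were 0.35 and -0.03. mex-1 rose by 0.45 after the omission and by 0.71 with all libraries. Of 14 genes of somatic tissues, rol-6 was at 0 in every library, ges-1, elt-2, dpy-7 and rgef-1 had too few counts to be tested, and 1 of 9 was called (rab-3 of neurons, 1.79). Their sum was 539 to 1086 CPM in HC125 and 607 to 806 in the hrde-1 strain.

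**Figure D5:**
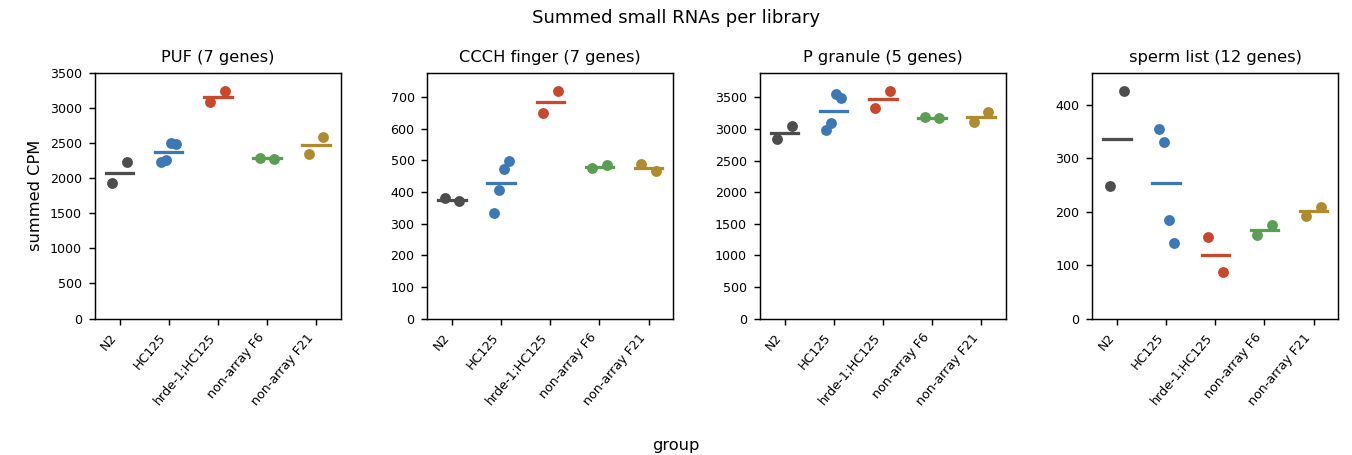
Points are the summed CPM of single libraries and lines the group means for the PUF, CCCH finger and P granule genes and for the sperm list; every axis starts at 0. Both libraries of the hrde-1 strain are highest for PUF (3084 and 3247) and CCCH finger genes (648 and 719), the P granule sums overlap between HC125 and the hrde-1 strain, and the sperm sums are highest in N2 and in HC125 replicates 1 and 2.

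Summed over all 43 genes, the libraries of N2 held 7507 and 8519 CPM, those of HC125 held 8331, 8532, 9818 and 9612, with 10757 and 11423 in the hrde-1 strain, 8982 and 8981 at F6 and 8938 and 9326 at F21. Over the libraries, the share of that sum was 25.4% to 28.7% for PUF genes, 31% to 37.9% for P granule genes and 4.01% to 6.29% for CCCH finger genes. In both libraries of the hrde-1 strain the PUF and CCCH finger shares were the highest and the P granule shares the lowest.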

How the data were processed

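The authors deposited raw counts of 21 to 26 nt reads per gene, 1 column per library, from young adult worms. Bowtie2 and HTSeq were used, per the submitters' processing notes; no source used here gives their versions, the genome build, strandedness or how multiply matching reads were counted. A total is therefore the number of reads counted at genes, not the depth of sequencing. The 2 libraries of HC125 described as 5'-dependent are not analysed here. Names, exon lengths and coordinates came from Ensembl release 115 (WBcel235) by gene ID, which held 20194 of 20541 IDs a build that may differ from the authors'.

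From the counts, 1 model of 5 groups was fitted to all 12 libraries in R 4.3.3 with edgeR 4.0.16 (filterByExpr with minimum count 10 and minimum total 15, TMM scaling, robust quasi-likelihood F test, two-sided, 7 residual degrees of freedom). Genes were called at a Benjamini-Hochberg adjusted p under 0.05 over all 10470 tested genes. SEs were derived from the F statistic. Folds are on the log2 scale, CPM is scaled by TMM, and values are single libraries. A 95% interval uses the SE and the moderated degrees of freedom. DESeq2 1.42.0, library size alone, no low-count filter, a replicate block, only the compared groups and omissions of libraries were tried. The main edgeR fit was tested on simulated data for its pairwise comparisons, and the alternatives were not. Replicates differed beyond sampling noise in every group (chi-square per degree of freedom 2.13 to 9.09).

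The genes, subgroups, lists and tests were chosen with earlier results of these data known. Values in every library are given for up to 5 called genes per comparison with the smallest adjusted p and for the gene with the highest level per length of each subgroup; fbf-1, fbf-2, daz-1 and glp-1 were added after their values were seen. Intervals and counts cover the spread between libraries, and without molecular identifiers PCR copies are counted too.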

Additional observations from a re-analysis of the deposited data

Results flagged for a closer look

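lin-41, which encodes a TRIM-NHL protein that holds oocytes from maturing too early, had 68.5 CPM in HC125 replicate 1, far below the other 3 HC125 libraries at 117, 122 and 113 CPM. The gap to the nearest library took a larger part of the range of the 4 than the critical value of Dixon's test at the 95% level allows. HC125 replicate 1 is the shallowest library, with 32 counts at lin-41. This was 1 of 43 genes looked at in this way, and chance flags about 5% of groups.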

How the results depend on the processing

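The 15 genes higher in hrde-1;HC125 than in HC125 and the 17 higher than in N2 kept their direction in 350 of 350 combinations of a call and an alternative, and 259 kept the call. These results were selected as called higher and the alternatives reuse most of the same counts, so the direction had little room to change. Both comparisons also share the hrde-1;HC125 libraries. puf-11, mex-5 and cgh-1 kept their calls in both comparisons, and puf-3 and cpg-2 in that against N2, under every alternative tried. The number called in hrde-1;HC125 against HC125 was 3 to 17 with 1 library left out, and against N2 5 to 15. Over 5 groups it was 3 to 12 with 1 library left out, 15 with no low-count filter and 25 with N2 replicate 2 and HC125 replicates 1 and 2 left out together. That joint omission gave 8 calls in HC125 against N2, 2 at F6 and 2 at F21 against N2, and 14 and 22 in the comparisons of hrde-1;HC125. It took out the higher N2 library and the lower HC125 pair, by median at these genes. A wider gap between HC125 and N2 was therefore built in. Any further cause was not tested. With library size alone, glp-1 (-0.54, adjusted p = 0.0198) and daz-1 (-0.46, adjusted p = 0.0484) were called lower in hrde-1;HC125 than in HC125. Leaving out a library also leaves fewer samples, and with 1 library left in a group its spread is that of the other groups. Replicates of different groups share only a number: of 20 same-numbered pairs 2 deviated together with a correlation above 0.1 (range -0.25 to 0.31), and 6 of 10 libraries correlated best with their own number. Replicate numbers above 2 occur only in HC125, so with the replicate block only HC125 replicates 1 and 2 carry the comparison with HC125. By median, that pair had fewer small RNAs at these genes than the other HC125 libraries. The rise at mex-1 was 1.20 with the block and 0.71 in the main fit. The block gave 18 calls over 5 groups and 1 (puf-11, 0.45) at F6 against N2. For hrde-1;HC125 it gave 20 higher and 1 lower against HC125 (glp-1 at -0.54, adjusted p = 0.0252), 21 in all. Against N2 it gave 20 higher. Depth limits perm-2, perm-4, pos-1 and cpg-3 most, with 0 to 9 counts in their lowest libraries.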
